A study of Mus musculus with 4 samples.

Results

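The signalling lymphocyte activation molecule (SLAM) family was followed here through 8 genes: the receptors Cd244a, Slamf1, Slamf6, Slamf7, Ly9 and Cd84, the ligand Cd48, and the adaptor Sh2d1a. Every probe set that the platform annotation assigns to one of these symbols was taken, which gave 14 of the 45037 probe sets tested. CD8 T cells were taken from spleens of wild-type mice of strain B6 and their RNA was hybridised to 4 Affymetrix mouse arrays, 2 of Ly49+ (CD44+CD122+Ly49+) cells, called CD8+ Treg in the labels, and 2 of Ly49- (CD44+CD122+Ly49-) cells, called conventional memory type. The age of the mice and any pooling of animals are not given in the sources used here. It is not stated whether the 2 replicates of a group are different animals, and the spread behind each p-value may therefore be technical.

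SLAM receptors are immunoglobulin-superfamily proteins of blood cells. Most of them bind the same receptor on a neighbouring cell, while CD244 (2B4), the product of Cd244a, binds CD48. Tyrosine motifs in the tails of many of these receptors dock SAP, the small adaptor encoded by Sh2d1a, which recruits the kinase Fyn. Without the adaptor the same motifs can recruit inhibitory phosphatases. In T and natural killer (NK) cells the family tunes killing, cytokine output and contact with B cells. In the RefSeq gene order of assembly GRCm38.p6 the 7 genes other than Sh2d1a stand in 1 run on chromosome 1, in the order Cd244a, Ly9, Slamf7, Cd48, Slamf1, Cd84 and Slamf6, and Sh2d1a lies on the X chromosome. The 8 other genes annotated between them are a microRNA, a tRNA, a small nuclear RNA, long noncoding RNAs, pseudogenes and Tma7-ps, which the table lists as protein-coding, and none of these had a named probe set.

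The arrays had medians between 188.5 and 190.4 and pairwise Pearson correlations across probe sets between 0.996 and 0.998. Klra7, a Ly49 gene and thus a check of the sort, read 8969 and 8895 on the Ly49+ arrays, against 910 and 900.1 on the Ly49- arrays. The 7 genes of the CD8 T-cell list read between 8319 and 24234 on all 4 arrays, and none of them passed the test. Of these, Cd44 and Il2rb encode CD44 and CD122, the markers by which both groups are defined. The lowest of the readings was that of Cd44. One Ly49- array stood apart in a hybridisation control: the middle probe set of the older BioB set read 2862 and 2716 on the Ly49+ arrays, against 584 on Ly49- replicate 1 and 2481 on Ly49- replicate 2. Its newer counterpart read 2546 and 2433 against 2459 and 2404. Cells that are not CD8 T cells were traced by their markers. Of 12 macrophage and monocyte markers, 9 were called higher in Ly49+ cells and none lower, where 0.973% of all genes, each read by its brightest probe set, were called higher and 0.698% lower. They had a median log2 fold change of 0.65 and a summed intensity of 19700 to 21898 on the Ly49+ arrays against 13072 to 13144 on the Ly49- arrays.

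Within the SLAM family, Ly49+ cells had more Cd244a and less Slamf1 RNA than Ly49- cells, while 6 of the 8 genes missed the threshold. In the fit over all probe sets, with each gene read by its brightest probe set, 1 gene was called higher and 1 lower, where 1.67% of all genes were called. A fit on the brightest probe sets alone called 1 higher and 2 lower, Ly9 being the second, and 723 of 18193 genes. Of the 14 probe sets, 2 were called higher and 1 lower (limma, Benjamini-Hochberg adjusted p under 0.05), where 1.19% of all probe sets were called, 0.766% higher and 0.429% lower. The median log2 fold change of the 14 probe sets was -0.05, against -0.03 over all probe sets. The groups did not overlap at 9 of the 14, of which 3 were higher and 6 lower in Ly49+ cells, where 44.9% of all probe sets had no overlap (15.7% higher and 29.1% lower). All 14 had group means above the highest bacterial control (68.4 in intensity), the floor used here because no detection calls were given. Probe sets of different genes differ in their response, so a level is compared only between groups.

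**Figure D1:**
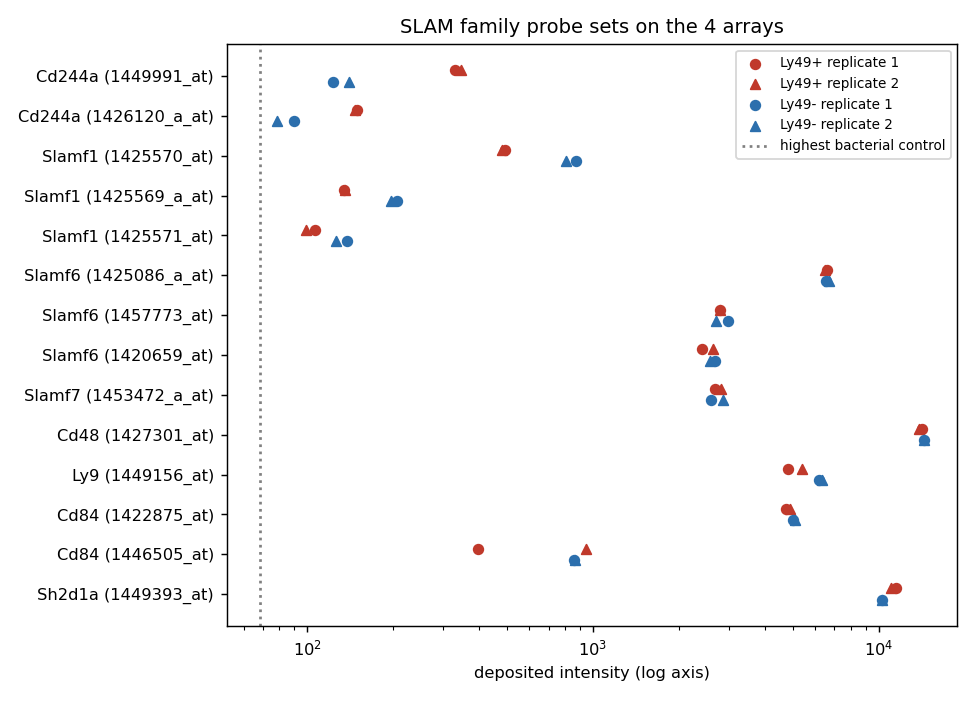
Deposited intensity (log axis) of the 14 SLAM family probe sets, with a point for each Ly49+ (red) and Ly49- (blue) array and the highest bacterial control as a dotted line. The Cd244a points of the groups are apart with Ly49+ to the right, those of Slamf1 are apart with Ly49+ to the left, and the Cd84 probe set 1446505_at has a single Ly49+ array at 395 far from the other 3.

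Cd48 encodes the lipid-anchored ligand of CD244 and, in mice, of CD2. Its probe set 1427301_at read 14171 and 13809 in Ly49+ cells, against 14445 and 14431 in Ly49- cells. The Ly49- values lay above both Ly49+ values by a small margin. The log2 fold change was -0.05 with a 95% interval of -0.13 to 0.04, and it did not pass (adjusted p = 0.62).

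Cd244a, which encodes the CD48 receptor of NK cells and of some CD8 T cells, gave the largest log2 fold change of the family in either direction. Probe set 1449991_at read 331 and 346 in Ly49+ cells, against 124 and 141 in Ly49- cells. Both Ly49+ arrays were high and both Ly49- arrays low, with a gap between the groups wider than the distance between replicates. The means were 339 ± 11.2 against 132 ± 11.9 (SD, 2 arrays each), a 2.40-fold rise on the scale of log2(intensity + 16), which all fold changes here use (log2 fold change 1.26 ± 0.12 SE, adjusted p = 0.0083). The second probe set, 1426120_a_at, read 149.6 and 147 in Ly49+ cells, against 90.2 and 78.2 in Ly49- cells. It showed the same order of the groups closer to the floor, and rose 1.64-fold (log2 fold change 0.72 ± 0.12 SE, adjusted p = 0.043). With a spread held constant over levels, this second probe set missed the threshold (adjusted p = 0.054). When single arrays were left out, 1449991_at passed without Ly49+ replicate 1 (adjusted p = 0.046) and missed it without Ly49+ replicate 2 (0.063), Ly49- replicate 1 (0.086) or Ly49- replicate 2 (0.072), with log2 fold changes between 1.18 and 1.34. The second probe set missed it in all 4 such fits, with adjusted p between 0.15 and 0.25.

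Slamf1 encodes CD150, a self-binding receptor of activated lymphocytes and blood stem cells that signals through SAP. Probe set 1425570_at read 492 and 479 in Ly49+ cells, against 871 and 808 in Ly49- cells. Both Ly49+ arrays were low and the groups lay far apart. The means were 486 ± 9.06 against 839 ± 44.5, which made the gene 1.70-fold lower in Ly49+ cells (log2 fold change -0.77 ± 0.09 SE, adjusted p = 0.017). Its 2 dimmer probe sets had the same sign and did not pass. Of these, 1425569_a_at read 135.2 and 135.9 in Ly49+ cells, against 206 and 197 in Ly49- cells (log2 fold change -0.52, adjusted p = 0.093). The dimmest, 1425571_at, read 106 and 98.99 in Ly49+ cells, against 138 and 126 in Ly49- cells (log2 fold change -0.32, adjusted p = 0.29). In all 3 probe sets both Ly49+ arrays were below both Ly49- arrays, as in 29.1% of all probe sets. The 3 read 1 gene on the same arrays. With 1 array left out, 1425570_at kept log2 fold changes between -0.82 and -0.72, and missed the threshold each time. The adjusted p was 0.084 and 0.12 where Ly49+ replicate 1 or 2 was dropped, and 0.13 and 0.11 where Ly49- replicate 1 or 2 was.

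Ly9 encodes CD229, a self-binding receptor of T and B cells that also docks SAP. Its probe set 1449156_at read 4827 and 5414 in Ly49+ cells, against 6169 and 6335 in Ly49- cells. Both Ly49+ arrays were below both Ly49- arrays. The log2 fold change of -0.29 ± 0.06 SE did not pass over all probe sets (adjusted p = 0.10). It passed in 2 of 12 alternatives, the brightest probe set per gene alone (adjusted p = 0.030) and the replicate block (0.017). Without a trend of the spread it missed the threshold (adjusted p = 0.26). With 1 array left out the log2 fold change lay between -0.37 and -0.21.

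**Figure D2:**
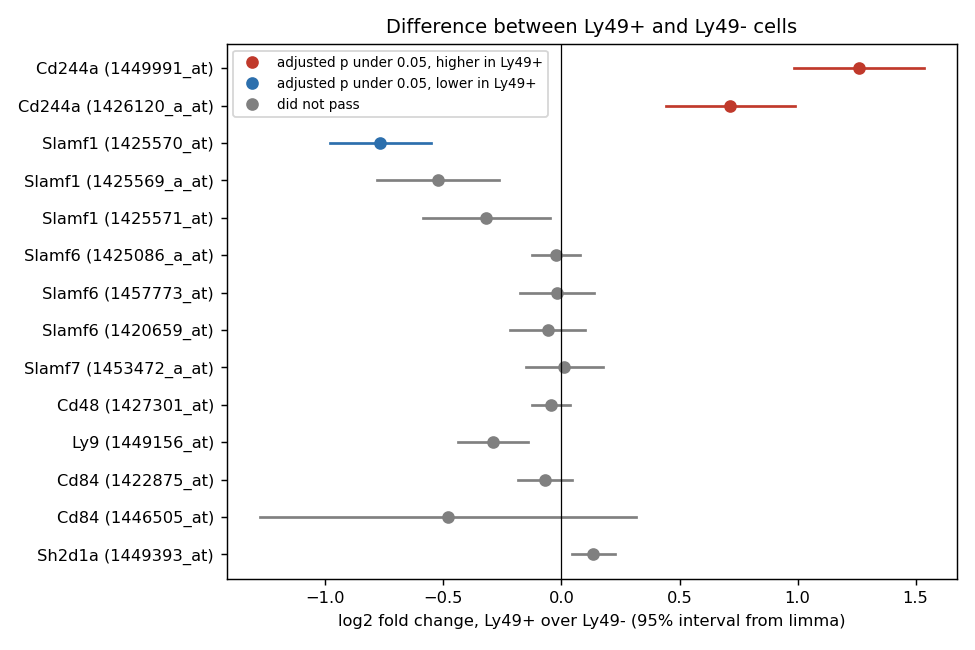
Log2 fold change of Ly49+ over Ly49- cells for each SLAM family probe set, with limma's 95% interval as a line (red, called higher; blue, called lower; grey, did not pass). Both Cd244a probe sets lie right of 0 and all 3 Slamf1 probe sets left of it, while Slamf6, Slamf7 and Cd48 lie within 0.06 of 0.

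Cd84 encodes a self-binding receptor that holds T cells and B cells in contact. Its brighter probe set, 1422875_at, read 4738 and 4884 in Ly49+ cells, against 4999 and 5098 in Ly49- cells (log2 fold change -0.07, 95% interval -0.18 to 0.04, adjusted p = 0.59). The other, 1446505_at, read 395 and 948 in Ly49+ cells, against 859 and 865 in Ly49- cells. Ly49+ replicate 1 alone was low, so the groups overlapped, and the interval ran from -1.28 to 0.32 (log2 fold change -0.48, adjusted p = 0.59). Without Ly49+ replicate 2 the same probe set gave -1.10 (adjusted p = 0.046), and without Ly49+ replicate 1 it gave 0.13 (adjusted p = 0.75), so 1 array decides its value.

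Slamf6 encodes Ly108, a self-binding receptor known from natural killer T-cell development and from the self-renewing fraction of exhausted CD8 T cells. Probe set 1425086_a_at read 6582 and 6492 in Ly49+ cells, against 6565 and 6719 in Ly49- cells. The groups overlapped there and in the other 2 probe sets of the gene. The log2 fold changes of the 3 were -0.02, -0.02 and -0.06, with adjusted p between 0.76 and 0.94, and their 95% intervals together ran from -0.22 to 0.14.

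Slamf7 encodes CRACC, a self-binding receptor of cytotoxic lymphocytes, plasma cells and macrophages. Probe set 1453472_a_at read 2669 and 2801 in Ly49+ cells, against 2586 and 2844 in Ly49- cells. The Ly49+ values lay between the Ly49- values. The log2 fold change was 0.01, with a 95% interval of -0.15 to 0.17 (adjusted p = 0.97).

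Sh2d1a, the adaptor gene, whose human counterpart is mutated in X-linked lymphoproliferative disease, read 11488 and 11061 in Ly49+ cells, against 10267 and 10257 in Ly49- cells (1449393_at). Both Ly49+ arrays were slightly higher. The log2 fold change was 0.14 ± 0.04 SE, with a 95% interval of 0.04 to 0.23 before adjustment, and it did not pass (adjusted p = 0.20).

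Of the relatives of the family, the receptors Slamf8 and Slamf9 and the second CD48 receptor gene Cd2 had probe sets of their own. Slamf8, expressed mainly by macrophages, read 362 and 359.9 in Ly49+ cells, against 174 and 201 in Ly49- cells. It was higher in Ly49+ cells (log2 fold change 0.89 ± 0.12 SE, adjusted p = 0.022), and missed the threshold without any 1 of the arrays (adjusted p between 0.11 and 0.14). Cd2 read 18724 and 18557 against 18778 and 18595 in Ly49- cells (log2 fold change -0.00, adjusted p = 0.98), and Slamf9 differed by -0.06 (adjusted p = 0.89). So 1 of these 3 genes was called higher and none lower, again beside 0.973% and 0.698% of all 18193 genes. Of 20 measured genes of the signalling path behind the receptors, such as Fyn, the phosphatase genes Ptpn6, Ptpn11 and Inpp5d, and Vav1, none passed in either direction. The median of these 20 was -0.03, against -0.04 over all genes, and 5 had an unadjusted p under 0.05, as had 15.5% of all genes. The smallest p was that of Vav3, a signalling protein related to Vav1, which read 955 and 967 in Ly49+ cells, against 802 and 728 in Ly49- cells (log2 fold change 0.32, adjusted p = 0.18). Fyn differed by 0.04 (adjusted p = 0.72) and Ptpn6 by 0.12 (adjusted p = 0.25).

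The genes whose pattern over the 4 arrays was most like that of Cd244a were Tcf7l2, Spic and Cd93. Likeness was measured as the root mean square difference of log2 values centred on the mean of the 4 arrays, which was 0.06, 0.06 and 0.07. Genes picked by this measure are close to the member by construction, so their closeness is not a test. Spic, a transcription factor of red pulp macrophages of the spleen, read 1029 and 1211 in Ly49+ cells, against 423 and 495 in Ly49- cells (log2 fold change 1.26). Cd93, a receptor of myeloid and endothelial cells, read 973 and 1035 against 421 and 481 in Ly49- cells (1.13), and Tcf7l2, a Wnt pathway transcription factor, 569 and 647 against 244 and 269.9 (1.19). In these sorted populations, fewer cells of a type and less RNA per cell cannot be told apart. Of the 12 macrophage and monocyte markers, Lyz2, the macrophage lysozyme, had the largest log2 fold change (1.13) and Vcam1 (0.73), C1qb (0.64), Csf1r (0.57), C1qc (0.77) and Adgre1 (0.66) were among the 9 called higher, while Itgam, which encodes CD11b, read below the bacterial controls in both groups. Fewer of the 12 were called higher with any 1 array left out, as was so over all probe sets. In those fits the log2 fold change lay between 1.08 and 1.18 for Lyz2. It lay between 0.63 and 0.83 for Vcam1 and between 0.48 and 0.65 for Csf1r. A spread held constant over levels left 1 of the 12 called higher, where 233 of all probe sets were called against 538. In 11 of the 12 both Ly49+ arrays read above both Ly49- arrays, as in 13.2% of all genes. The part of macrophage RNA in the differences of Cd244a and Slamf8 was not tested.

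**Figure D3:**
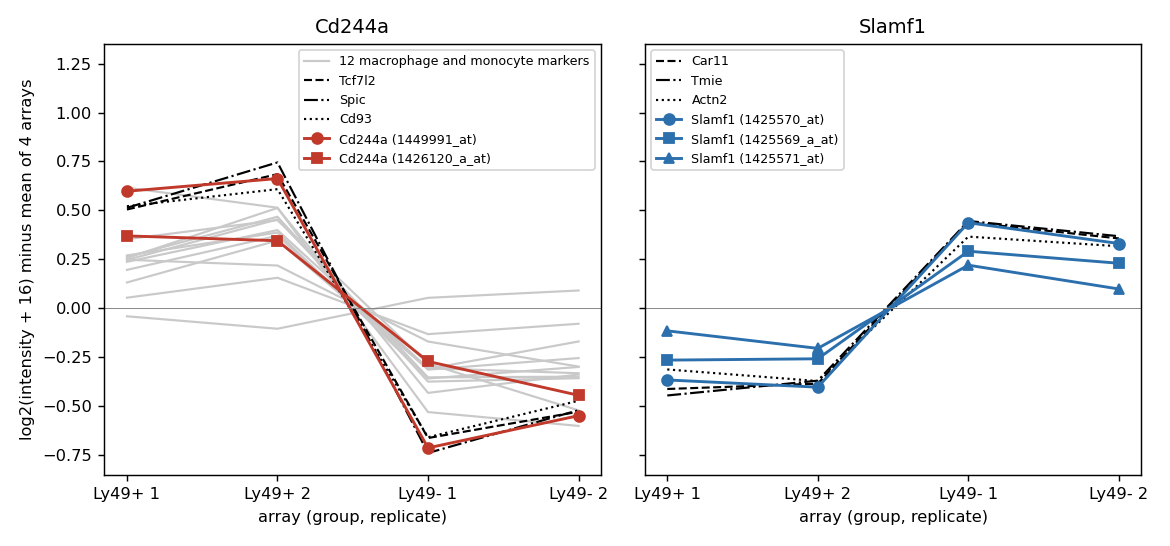
Log2(intensity + 16) minus the mean of the 4 arrays, by array, for Cd244a (left) and Slamf1 (right), with the 3 genes most like each (black) and, at left, the 12 macrophage and monocyte markers (grey). The Cd244a probe set 1449991_at runs with Tcf7l2, Spic and Cd93, which were picked for that likeness. Most macrophage markers run the same way with smaller differences.

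For Slamf1 the nearest patterns were those of Car11 (root mean square difference 0.03), Tmie (0.05) and Actn2 (0.05), with log2 fold changes of -0.80, -0.81 and -0.68. Car11 encodes a carbonic anhydrase-related protein and Actn2 an actin cross-linker best known from muscle. The other marker lists had smaller medians than that of macrophages. Of 5 dendritic-cell markers 1 was called higher, the chemokine receptor gene Xcr1 (log2 fold change 0.95, between 0.88 and 1.03 with 1 array left out). With any 1 array left out, Xcr1 missed the threshold. Of 7 B-cell markers 1 was called higher, the sialic-acid receptor gene Cd22 (1.05). None was called lower in these lists, where 0.973% of all genes were called higher and 0.698% lower. The medians of the 2 lists were 0.40 and 0.25. In the dendritic-cell list, Flt3 and Zbtb46 were higher without passing (log2 fold changes 0.40 and 0.43). Itgax went the other way, at 1345 and 1498 in Ly49+ cells, against 1600 and 1591 in Ly49- cells (-0.17). Siglech differed by -0.05. Of the B-cell markers, Pax5 and Cr2 read below the bacterial controls in both groups, while Ms4a1, Cd79a and Blnk read above them with the Ly49+ arrays higher. Cd79b, a chain of the B-cell receptor, read 2050 and 2020 in Ly49+ cells, against 2488 and 2462 in Ly49- cells (log2 fold change -0.28, adjusted p = 0.096). None of 4 NK-cell, 3 plasma-cell, 3 CD4 T-cell or 3 erythroid and platelet markers passed, with medians of 0.13, 0.06, -0.05 and -0.04. The smallest p in the NK list was that of Itga2, which read 210 and 237 in Ly49+ cells, against 129.9 and 146 in Ly49- cells (log2 fold change 0.64, adjusted p = 0.075). It passed in 3 of 11 alternatives, with a robust spread (adjusted p = 0.046), the replicate block (0.023) and the brightest probe sets alone (0.022). It missed the threshold in the rest, and with 1 array left out its log2 fold change lay between 0.56 and 0.72. Klrb1c and Klri2, also in the NK list, had no probe set of their own. Ncr1, a receptor that marks most NK cells, read below the bacterial controls in both groups, at 34.9 and 44.8 against 35.2 and 44.6.

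**Figure D4:**
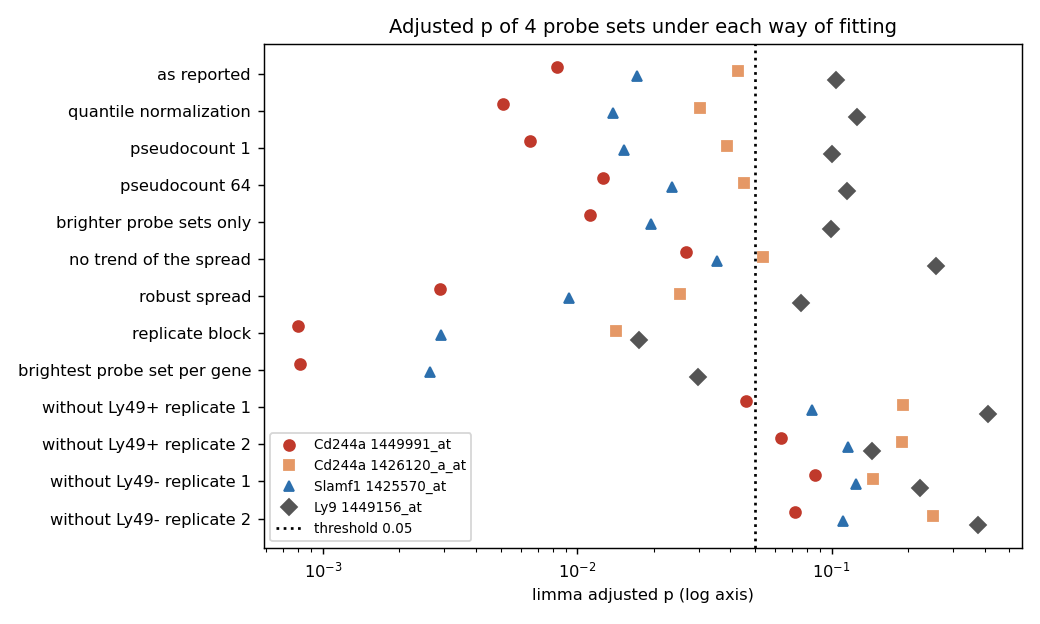
Limma adjusted p (log axis) of 4 SLAM family probe sets under the fit reported and 12 alternatives, with the threshold of 0.05 as a dotted line. The Cd244a probe set 1449991_at and the Slamf1 probe set 1425570_at are left of the line in the fit reported and in the 8 alternatives that keep every array, and right of it in most of those that leave 1 out.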

How the data were processed

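Per the labels, biotin-labelled RNA of sorted CD8 T cells was hybridised. Deposited by the authors was a linear intensity per probe set, with the arrays already on nearly one scale. No source used here gives their normalization. Groups and replicate numbers came from the sample titles.

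Of 45101 probe sets, 64 controls were left out. By the platform annotation, 34945 of the rest had 1 gene symbol and 932 several, and 9160 were not listed. Gene IDs were matched to RefSeq (GRCm38.p6), which changed 0 symbols. Intensities were transformed to log2(intensity + 16), a scale on which fold changes of dim probe sets are understated. Limma 3.58.1 in R 4.3.3 with data.table (version 1.17.8) was fitted over all 45037 probe sets with group as the only term, a trend of the spread on the level, 2 residual and 5.05 prior degrees of freedom, and Benjamini-Hochberg adjustment at 0.05. No filter on low values was applied. In other lists a gene was read by its probe set with the highest mean. The number of arrays limits the precision. The test was tried on simulated data.

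The members and lists were chosen with earlier results of these data known. Named were all probe sets of the 8 genes, the genes of the CD8 T-cell list and the 3 genes most like each called member. Of each other list, the genes past the threshold were named (at most 6, or the one with the smallest p). Klra7, the hybridisation control, Cd2, Slamf9, Fyn, Ptpn6, Ptpn11, Inpp5d, Vav1, Itgam, Pax5, Cr2, Ms4a1, Cd79a, Cd79b, Blnk, Ncr1 and the genes of the closing observations were named after their values were seen. So were Flt3, Zbtb46, Itgax and Siglech. The alternatives tried were no trend, pseudocounts of 1 and 64, quantile normalization, the brighter probe sets, a robust spread, a replicate block, 1 probe set per gene, and leaving out each array. Protein motifs of the receptors were not analysed here.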

Additional observations from a re-analysis of the deposited data

How the results depend on the processing

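Fits that kept every array called 2 SLAM family probe sets higher, except the fit without a trend, the brighter probe sets alone (11 of the 14 tested) and the brightest probe set per gene (8 tested), which called 1. All called 1 lower, except the replicate block and the brightest probe set per gene, which called 2, the second being Ly9. Over all probe sets 538 were called, 233 without a trend and 1415 with the replicate block. Leaving out 1 array gave 0 to 1 family probe sets higher, 0 to 1 lower and 31 to 104 of all probe sets called, and 49 without Ly49- replicate 1, the array that stood apart in a hybridisation control. In those fits the lone array of a group is assumed to vary like the other group. Same-numbered arrays deviated together with a correlation of 0.24, but the labels do not say what a number shares, so the block is not used as the main result. With it the adjusted p was 8.0e-04 for Cd244a (1449991_at), 0.0029 for Slamf1 (1425570_at) and 0.017 for Ly9, and Egr3 and Itga2 passed with it as well. No called member reversed its sign in any alternative. The number of arrays limits the precision.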

Other observations

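Genes of the programme that SAP supports in innate-like and helper T cells did not pass. Of 10 measured, none was called higher or lower, the median log2 fold change was 0.07, and 4 had an unadjusted p under 0.05, as had 15.5% of all genes. Of these 4, Egr3 and Bcl6 were higher and Cxcr5 and Il4 lower in Ly49+ cells. Il13 and Il21 read below the bacterial controls in both groups, and Il4 did so in Ly49+ cells. Among the 10, Egr3, an early growth response factor, had the smallest p and read 1481 and 1271 in Ly49+ cells, against 1187 and 924 in Ly49- cells (log2 fold change 0.38, adjusted p = 0.28). It passed with the replicate block (adjusted p = 0.034). Zbtb16, the factor PLZF of innate-like T cells, read 73.9 and 78.1 in Ly49+ cells, against 75.4 and 106 in Ly49- cells, close to the bacterial controls. Ifng, the gene of interferon gamma, read 8418 and 3245 in Ly49+ cells, against 7506 and 3924 in Ly49- cells. Its high value was on replicate 1 in both groups, and the groups overlapped.

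A single probe set is assigned to both Sh2d1b1 and Sh2d1b2, the adaptor genes related to Sh2d1a, and cannot tell them apart. It read 221 and 256 in Ly49+ cells, against 191 and 205 in Ly49- cells (log2 fold change 0.25, adjusted p = 0.44).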
